A study of Rattus norvegicus with 10 samples.

Results

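The miR-34 family comprises rno-miR-34a, rno-miR-34b and rno-miR-34c, chosen by name, and each has its own probe among the 237 rat miRNA names of the array. Only miR-34a stood far enough over the background of the scans to be compared between the groups: it was above background in 13 of 20 readings, against 2 of 20 for miR-34c and 0 of 20 for miR-34b. Its level was 6.43 ± 0.034 in shunt vessels and 6.42 ± 0.14 in control vessels (log2 intensity, SD, n = 5 each), a difference of 0.0095 that was smaller than the spread between animals.

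The tissue was collateral blood vessel, natural bypasses that widen once an artery is blocked, from 5 male Sprague-Dawley rats (spelled "Spraque-Dawley" in the labels). In the shunt group (n = 5), the femoral artery of the leg was ligated and an arteriovenous shunt was added, which raises fluid shear stress. The control group (n = 5) was the opposite, sham-operated leg of the same animals, and the submitters describe the vessels of the 2 groups as growing and quiescent. The sources used here give neither the age of the rats nor the time after surgery. Each RNA was read once in the dye AF665 and once in AF546, on 2 of the 10 two-colour arrays. Of these arrays, 4 held only shunt RNA, 4 only control RNA and 2 held both.

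MicroRNAs are short RNAs that pair through their seed, bases 2 to 8, with messenger RNAs and lower the output of those messengers. The miR-34 family is known as a set of direct targets of the transcription factor p53 and for restraining the cell cycle. In vessels, miR-34a is known from work on the ageing and senescence of endothelial and smooth muscle cells. The miRNAs miR-34b and miR-34c are made from a shared precursor and are best known in ciliated epithelia and testis, as is miR-449, which carries the same seed.

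The mature sequences are shown because the shared seed defines the family and because the bases outside it are what can keep the probes apart. They are the RefSeq entries for the rat genome build GRCr8, with the seed in capitals. The array names carry no arm suffix, so the arm could not be matched by an identifier, and the arm that carries the family seed is shown (for the array's miR-449, that of miR-449a).
rno-miR-34a-5p: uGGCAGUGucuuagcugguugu
rno-miR-34b-5p: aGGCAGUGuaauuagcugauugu
rno-miR-34c-5p: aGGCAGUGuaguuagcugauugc
rno-miR-449a-5p: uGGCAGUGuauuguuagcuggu

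All 4 sequences hold the seed GGCAGUG, which 5 of the 693 mature rat miRNAs in the RefSeq table carry; miR-449c-5p is the other one. Over the whole length, miR-34b and miR-34c are the closest pair, with 21 of 23 positions identical in the best alignment without gaps. In such alignments, miR-34a has 12 of 22 positions in common with miR-34b, 11 of 22 with miR-34c and 15 of 22 with miR-449a. The count with miR-34b comes from a shift of 1 base, which puts the seeds out of register. A gap would align more positions of miR-34a with miR-34b and miR-34c, so these counts do not rank its relatives by likeness. Reads of miR-34b and miR-34c by hybridisation are therefore uncertain as to which of this pair bound, since cross-hybridisation between such close sequences was not measured here. Cross-hybridisation between miR-34a and the other sequences was not measured either.

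The mature miR-34a lies at chr5:165815971-165815992 on the plus strand of GRCr8, inside the long noncoding RNA gene LOC103692514. The mature miR-34b lies at chr8:60306657-60306679 and miR-34c at chr8:60306133-60306155, both on the minus strand. Their hairpins are 441 bases apart, and both lie inside the protein-coding gene Hoatz, next to Btg4. The mature miR-449a lies at chr2:46403925-46403946 on the plus strand, inside the long noncoding RNA gene LOC134485839.

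A reading is 1 RNA in 1 dye on 1 array, and it was called above background when at least 2 of the probe's 3 spots exceeded the local background by more than 2 SD of that background. The miR-34a probe met this in 7 of 10 readings of shunt RNA and in 6 of 10 readings of control RNA. By dye, the count was 6 of 10 in AF665 and 7 of 10 in AF546. Both readings were above background in 5 of the 10 RNAs, and neither was in 2, which were control 2 and control 5. Before normalization, the median spot of miR-34a stood 3.08 background SDs over its surroundings in shunt RNA and 2.26 in control RNA, with net intensities of -1 to 81 in shunt spots and 9 to 70 in control spots. The scanner software located all 30 of its spots, and none was saturated. The miR-34a signal was thus low but present in both groups, and the ranges of its spots overlapped.

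The miR-34b probe stayed at background: 0 of 10 readings of shunt RNA and 0 of 10 of control RNA passed, and 26 of its 30 spots were marked as not found. Its median spot stood 0.35 background SDs over its surroundings in shunt RNA and 0.21 in control RNA, and 1 of 30 shunt spots and 0 of 30 control spots exceeded 2 SD. The miR-34c probe passed in 1 of 10 readings of shunt RNA and 1 of 10 of control RNA, and 21 of its 30 spots were marked as not found. Those 2 readings were shunt 5 on array 9 and control 1 on array 10, both in AF546. In the shunt 5 reading, the 3 spots stood 1.5, 3.18 and 2.19 background SDs over their surroundings, and in the control 1 reading 1.11, 2.72 and 2.52. In both cases 1 of the 3 spots fell short of the limit, and the same RNAs did not pass in AF665.

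**Figure D1:**
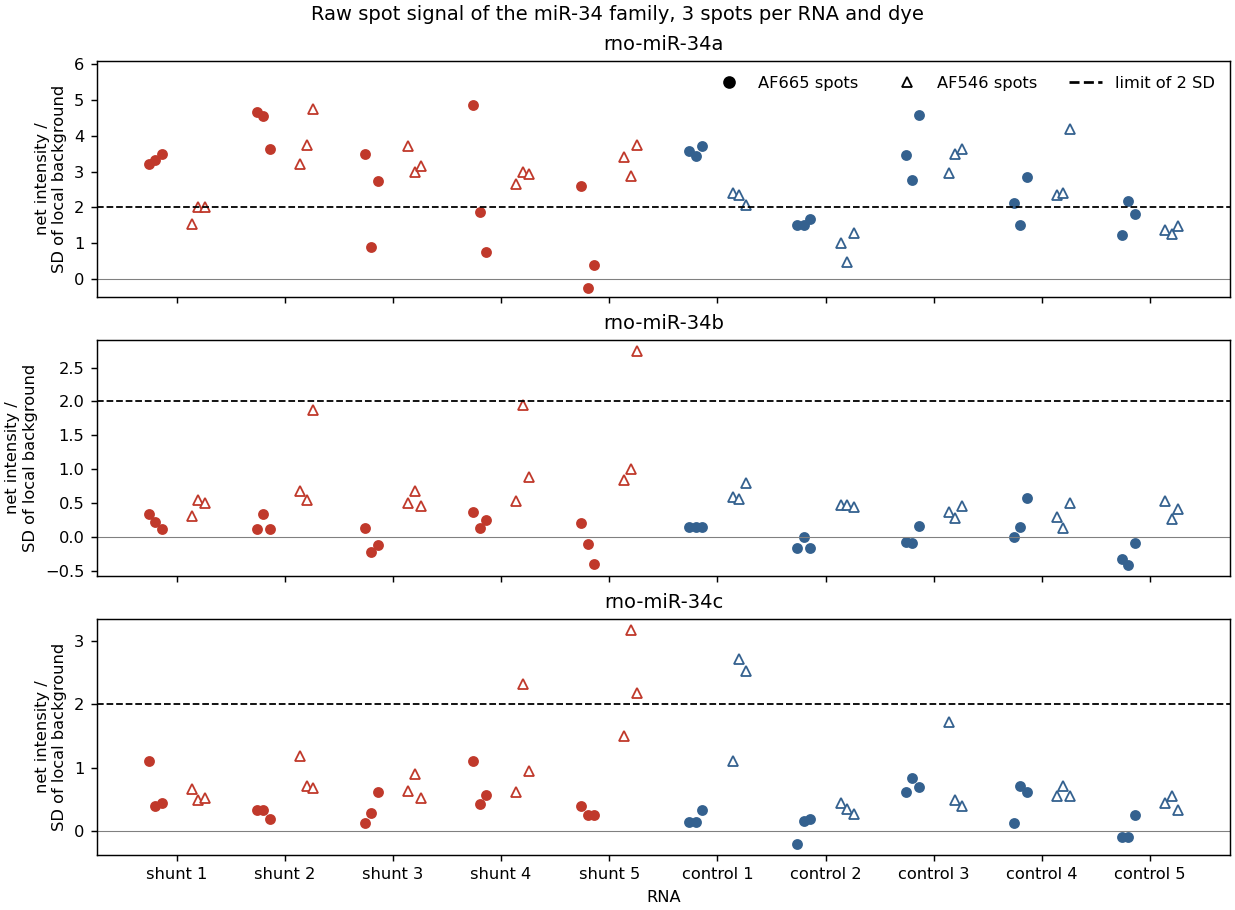
Net intensity (foreground minus local background) of every spot of the 3 family probes, in multiples of the SD of the local background, before any normalization, for shunt RNAs on the left and control RNAs on the right; filled circles are AF665 spots, open triangles AF546 spots, and the dashed line is the limit of 2 SD. Over the limit lie 22 of 30 shunt and 18 of 30 control spots of miR-34a, 1 and 0 spots of miR-34b, and 3 and 2 spots of miR-34c.

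The level of an RNA is the mean of its 2 readings after background correction, loess and between-array normalization, in log2 intensity. An offset of 50 was added to the corrected intensity, which places the floor at 5.64 and compresses the differences of dim probes. Levels of different probes are not set against each other, since probes differ in how they bind and label.

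The miR-34a levels were 6.41, 6.38, 6.46, 6.47 and 6.43 in shunt 1 to 5, against 6.40, 6.48, 6.63, 6.29 and 6.30 in control 1 to 5. The shunt values lay inside the range of the control values, which was wider at both ends. Control 3 was the highest RNA of all, and control 4 and control 5 were the lowest. Because both legs came from the same animal, the values can also be read in pairs. The shunt leg was higher by 0.012, 0.18 and 0.13 in animals 1, 4 and 5, and the difference was -0.093 and -0.17 in animals 2 and 3. The direction was thus not shared between animals, being higher in the shunt leg of 3 of 5.

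The difference of 0.0095 between shunt and control (log2, SE 0.079) had a 95% interval of -0.16 to 0.18 and an adjusted p of 0.967 in limma with Benjamini-Hochberg adjustment over the 93 kept rat miRNAs, those for which a share of 0.5 or more of the readings of either group was above background. Of the family, miR-34a alone was kept, and 0 of its 3 members passed the threshold of 0.05. The background is 1.08% of the kept rat miRNAs, 1 of 93, so a count of 0 among so few members is no result about the family. That background itself moved with 1 library: without control 4, 25 of the 93 passed, and miR-34a was not among them (difference -0.023, adjusted p = 0.823 in limma). The unadjusted p of miR-34a was 0.906. If all of the miR-34a signal over the offset came from the miRNA, a doubling of the mean control signal would read as a difference of 0.50 and a halving as -0.34. Both lie outside the interval of this fit. When each RNA was centred by taking off its median level over the kept miRNAs, the interval was -0.34 to 0.11, which reaches the halving. Some of those miRNAs were kept through the shunt group alone, where they read higher, and their part in this centring was not tested.

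The measured levels of miR-34b were 5.87, 5.86, 5.79, 5.87 and 5.86 in shunt 1 to 5, against 5.85, 5.82, 5.81, 5.85 and 5.83 in control 1 to 5. Their means were 5.85 ± 0.035 in shunt vessels and 5.83 ± 0.017 in control vessels (SD, n = 5 each). The groups overlapped, and all 10 values lay close to the floor. Since miR-34b was not above background in either group, no fold is given.

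The measured levels of miR-34c were 5.95, 5.88, 5.88, 6.01 and 6.18 in shunt 1 to 5, against 6.0, 5.88, 6.01, 5.94 and 5.89 in control 1 to 5. The means were 5.98 ± 0.12 in shunt vessels and 5.95 ± 0.060 in control vessels (SD, n = 5 each). Shunt 5 was the highest RNA, and the other 4 shunt values lay among or just below the control values. Both of its readings, on arrays 9 and 10, were 6.18 and 6.17, and the RNAs that shared those arrays, shunt 4 and control 1, read 6.05 and 6.14 there. With 1 of 10 readings above background in each group, miR-34c was not tested and no fold is given. In bulk tissue such as this, fewer cells of a type and less of a miRNA per cell cannot be told apart.

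**Figure D2:**
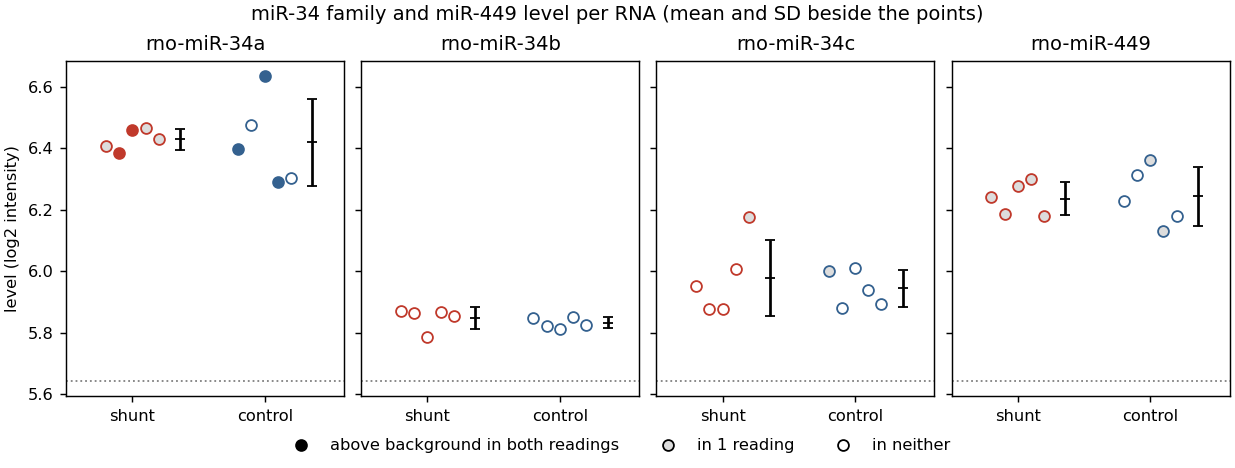
Level (log2 intensity) of each RNA for the 3 family members and miR-449, shunt left of control, in order of animal 1 to 5, with the group mean and SD (n = 5) beside the points and the floor of 5.64 dotted; the fill shows in how many of the 2 readings the probe was above background, and levels of different panels are not comparable. The groups overlap in every panel, and the shunt values of miR-34a, 6.38 to 6.47, lie inside the control range of 6.29 to 6.63.

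The readings of miR-34a followed the array more closely than the RNA. The 2 different RNAs on an array differed by 0.116 on average, whereas the 2 readings of the same RNA on different arrays differed by 0.229. Over the 93 kept miRNAs the medians of these measures were 0.232 and 0.210, and readings were closer within an array for 36 of 93. On array 2, which held only control RNA, control 2 read 6.77 in AF665 and control 3 read 6.84 in AF546, the highest of the 20 readings. In its other reading, on array 1 in AF546, control 2 stood at 6.18. Control 3 read 6.42 on array 3 in AF665.

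The control 2 reading on array 2 was not above background: its net intensity averaged 9.33, while that of control 3 on the same array averaged 67. The mean net intensity over all spots of the AF665 scan of array 2 was 5.21, the lowest of the AF665 scans, which reached 68.1. That of array 10 was nearly as low, at 5.34, and miR-34a read 6.35 there in shunt 5. Without array 2, control 2 stood at 6.18 and control 3 at 6.42, and the control mean of miR-34a was 6.32 ± 0.097 (SD, n = 5), against an unchanged shunt mean of 6.43. The difference was then 0.11 (SE 0.070, 95% interval -0.043 to 0.26, adjusted p = 0.342 in limma), still short of the threshold. The median difference of the kept miRNAs in that fit was 0.12, so miR-34a stood at -0.012 relative to it. The part of the dim AF665 scan in these values was not tested.

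The 2 arrays that held both groups allow a comparison within an array. On array 5, miR-34a read 6.41 in shunt 1 and 6.40 in control 5, and on array 10 it read 6.35 in shunt 5 and 6.22 in control 1. The mean of both differences was 0.071, with shunt RNA in AF546 on array 5 and in AF665 on array 10, so that the dye is balanced. These are 2 arrays, 1 of the 4 readings was above background, and no test was made. The other 8 arrays held 1 group each, so in the levels averaged over readings, array and group cannot be told apart on them. Log ratios within arrays, chained through the RNAs that neighbouring arrays share, gave a difference of 0.14 (SE 0.12, adjusted p = 0.436 in limma). In that calculation the groups are joined only through arrays 5 and 10.

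**Figure D3:**
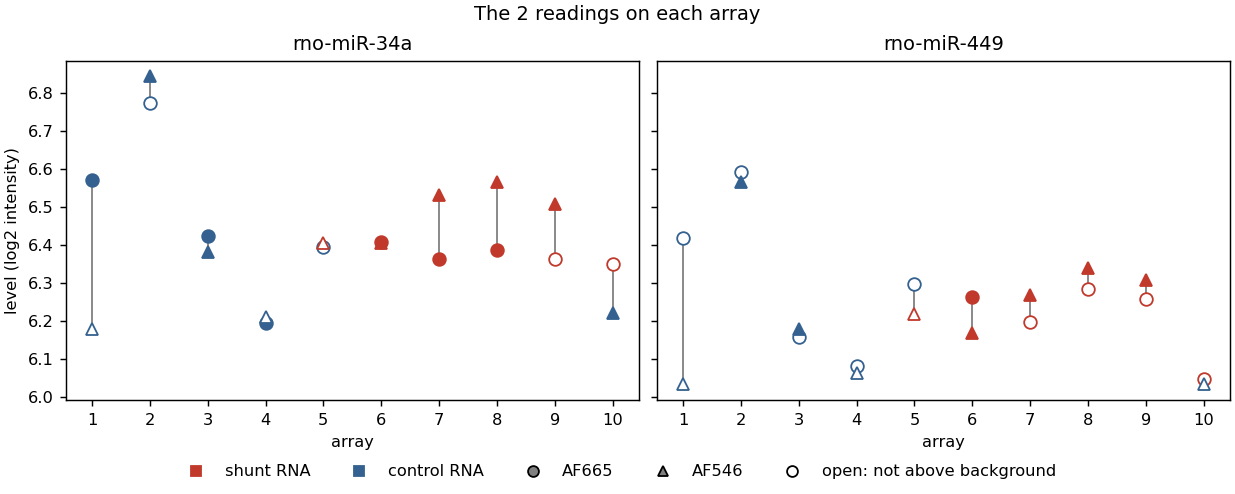
The 2 readings (log2 intensity) of miR-34a, left, and miR-449, right, on each of the 10 arrays, joined by a line, with shunt RNA in red, control RNA in blue, AF665 as circles and AF546 as triangles, and open symbols for readings not above background. Both probes were highest on array 2 in both dyes.

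The difference of miR-34a was among the smaller ones on these arrays. Of the 93 kept rat miRNAs, 6 had a smaller absolute difference, and the median absolute difference was 0.178. Its SE of 0.079 was below the median SE of 0.118, with 14 kept miRNAs lower. The kept miRNAs leaned towards the shunt group, with 67 higher, 26 lower and a median difference of 0.12. Some of them entered only through the shunt group, where they read higher, such as miR-200a and miR-1. The part of this filter in the lean and in the median was not tested. With each RNA's median level over the kept miRNAs taken off, miR-34a differed by -0.12 (SE 0.10, adjusted p = 0.612 in limma). The sign of miR-34a thus depends on this centring. Rat miRNAs above background, as the mean of the 2 readings, numbered 88.8 ± 12.8 per shunt RNA and 60.5 ± 19.0 per control RNA (SD, n = 5 each). The 2 readings of an RNA could lie far apart or close: 30 and 127 for shunt 5, and 37 and 36 for control 2 (AF665, then AF546). The part of the gap between the groups in the differences was not tested.

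**Figure D4:**
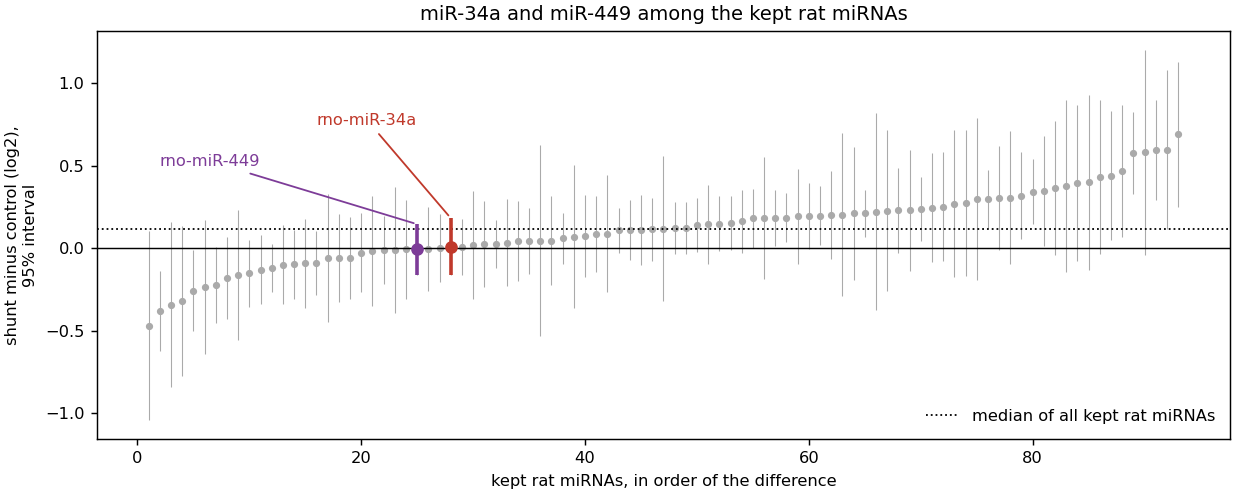
Shunt minus control (log2) with its 95% interval for the 93 kept rat miRNAs in order of the difference, with miR-34a in red, miR-449 in purple and the median of 0.12 dotted. The interval of miR-34a, -0.16 to 0.18, spans 0.

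The authors' deposited table gives its own fold for every animal. Turned so that a positive value means higher in the shunt leg, the authors' deposited table has log2 differences for miR-34a of 0.078, 0.285, -0.295, 0.048 and -0.068 in animals 1 to 5. Its p-values for these folds ran from 0.876 to 0.984. The sign differed from that of the levels above in animals 2 and 5. The mean over the RNAs of the value table in the same deposit was 0.0047 ± 0.098 in shunt vessels and -0.0047 ± 0.187 in control vessels (centred log2, SD, n = 5 each), and control 3 was again the highest RNA, at 0.317. For miR-34b, the log2 differences in the authors' deposited table ran from -0.205 to 0.091, and for miR-34c from -0.161 to 0.267, with p-values of 0.922 to 0.997 and 0.803 to 0.987.

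Of the relatives outside the family that carry the seed, the array names miR-449, which was above background in 5 of 10 readings of shunt RNA and 2 of 10 of control RNA. It was kept through the shunt group alone. It averaged 6.24 ± 0.054 in shunt vessels and 6.24 ± 0.095 in control vessels (SD, n = 5 each). The difference of -0.0068 (SE 0.069, 95% interval -0.16 to 0.15) had an adjusted p of 0.967 in limma. As with miR-34a, its readings were closer within an array, by 0.082 on average, than within an RNA, by 0.212. Its 2 highest readings, 6.59 for control 2 and 6.57 for control 3, were also those on array 2.

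The kept rat miRNA whose levels were most like those of miR-34a over the 10 RNAs was miR-449, with r = 0.90 and rho = 0.88. Next came miR-297 (r = 0.83, rho = 0.72) and miR-122a (r = 0.79, rho = 0.82). Neighbouring RNAs share an array, so the 10 points are not independent, and these correlations are descriptions with no test. Without array 2, the r of miR-449 with miR-34a was 0.87 (rho 0.71), that of miR-297 was -0.088 and that of miR-122a was -0.24, so the likeness of miR-297 and miR-122a rests on that array. Whether the miR-449 probe binds miR-34a through their 15 shared positions was not tested.

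The miRNAs linked to p53 outside the family were described as a list of 7 on the array. Of these, 5 were kept, of which 4 had a positive and 1 a negative difference. None of the 5 passed the threshold, beside 1 of 93 over all kept miRNAs. With so few members, this count is no result about the list. The median difference of the 5 was 0.046, against 0.12 over all kept miRNAs. All 5 met the filter in both groups. The rule for named miRNAs picked miR-143, a miRNA of contractile smooth muscle whose maturation p53 is known to promote, and miR-16, which restrains cyclins. Their levels were 8.71 ± 0.42 in shunt and 8.66 ± 0.52 in control vessels for miR-143, and 7.38 ± 0.17 in shunt and 7.34 ± 0.18 in control vessels for miR-16 (SD, n = 5 each). The differences were 0.046 (adjusted p = 0.967) and 0.042 (adjusted p = 0.854) in limma. The other 3 of the list, named after their values were seen, had larger differences: 0.31 for miR-194 (SE 0.14, adjusted p = 0.254), 0.18 for miR-107 (SE 0.17, adjusted p = 0.480) and -0.26 for miR-145 (SE 0.11, adjusted p = 0.235) in limma.

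Markers of epithelial and ciliated cells, in which miR-34b, miR-34c and miR-449 are known to be abundant, were uneven. Of 7 on the array, miR-141, miR-205 and miR-429 were above background in no reading, and miR-200c was in 3 of 10 readings of shunt RNA and 0 of 10 of control RNA. The other 3, miR-203, miR-200a and miR-200b, were kept through the shunt group alone, where their signal is higher, so no count or median over them is given. The level of miR-203, a miRNA of skin epithelium, was 6.43 ± 0.15 in shunt and 6.23 ± 0.11 in control vessels, with 8 and 3 of 10 readings above background. The measured level of miR-200a was 6.26 ± 0.079 in shunt and 6.08 ± 0.060 in control vessels (SD, n = 5 each), with 5 and 0 of 10 readings above background. The part of epithelial cells in the miR-34a level was not tested.

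The tissue label was checked against the markers of vessel wall cells. The smooth muscle miRNA miR-143 and the endothelial miRNA miR-126 were above background in 10 of 10 readings of each group. The second marker of smooth muscle, miR-145, was above background in 9 of 10 readings of shunt RNA and 8 of 10 of control RNA, and the second of endothelium, miR-126*, in none of the 20. Striated muscle miRNAs were present too: all 4 were kept and 0 passed the threshold, beside 1 of 93 over all kept miRNAs. The muscle miRNA miR-206 was above background in all 20 readings. The muscle miRNA miR-1 was so in 10 of 10 of shunt RNA and 4 of 10 of control RNA, and was kept through the shunt group alone. No count of directions or median over these 4 is therefore given. Of the leukocyte markers 1 of 4 was kept, of the erythroid markers 0 of 2, and of the nerve markers 2 of 4. The part of cells outside the vessel wall in the miR-34a level was not tested.

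**Figure D5:**
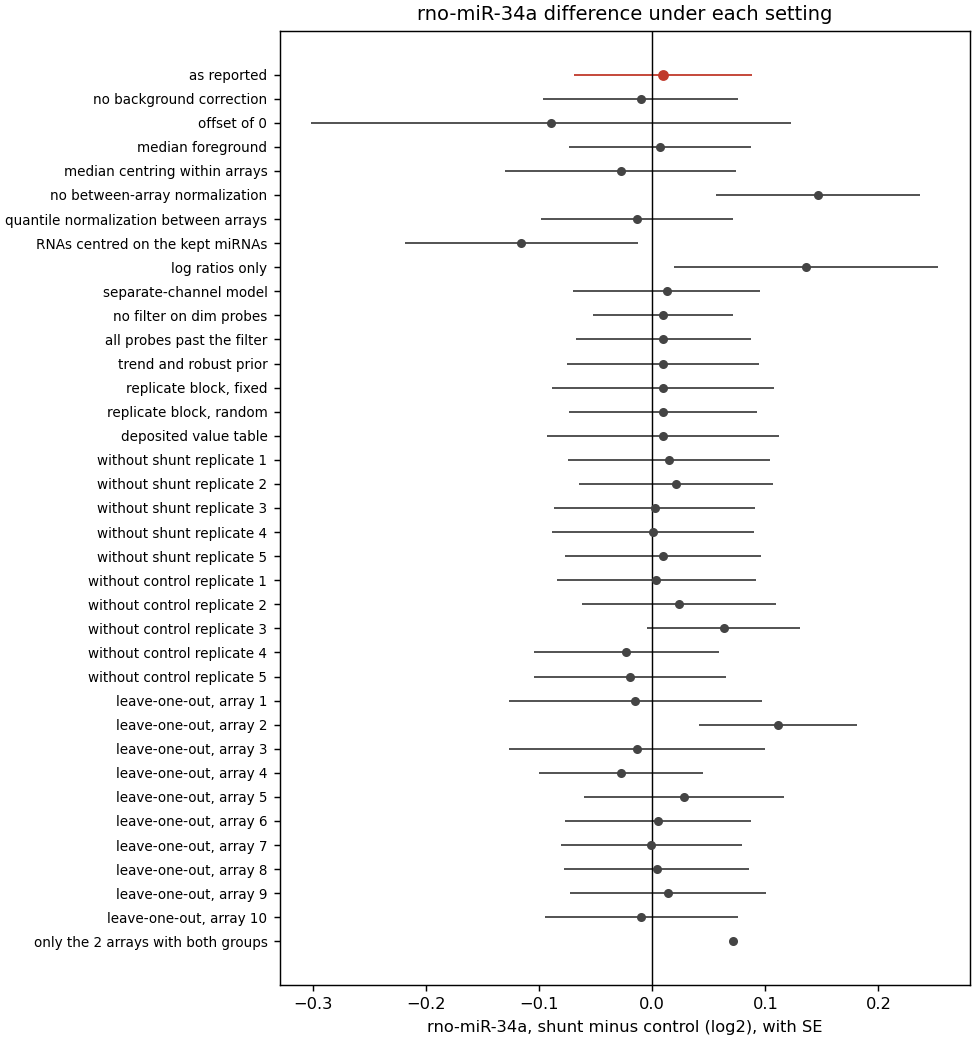
Shunt minus control of miR-34a (log2) with its SE under each setting, the value as reported in red; the comparison on the 2 arrays with both groups has no SE. The values run from -0.12 to 0.15 on both sides of 0.

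Under the 36 other settings tried, the difference of miR-34a lay between -0.12 and 0.15, above 0 under 24 and below 0 under 12. The 35 that carried a test gave adjusted p-values of 0.223 to 0.998 in limma, and miR-34a passed the threshold under none of them.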

How the data were processed

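Per the file headers, the deposited scanner files give the unnormalized foreground and background intensity of 3321 spots (1107 probes, 237 of rat miRNAs) in 2 channels, with the percent of saturated pixels and a spot flag, a score. The authors' deposited value table holds centred log2 values, and the sources used here do not give its offset or normalization. The authors' deposited table of folds gives a signed fold, a score, and a p-value per animal, with the test not stated. Total RNA was extracted with Trizol and labelled directly, per the labels' protocols.

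Intensities were corrected with normexp (offset 50), normalized by loess (span 0.3, 4 iterations) and Aquantile with R 4.3.3, limma 3.58.1 and statmod 1.5.0, and averaged over 3 spots, then both readings of an RNA. Rat miRNAs with a share of 0.5 or more of either group's readings above background (93 of 237) were fitted with lmFit and eBayes, two-sided, with Benjamini-Hochberg adjustment. The fit takes the RNAs as independent although neighbours share an array, so p-values may be too small, and the number of arrays limits the precision. The fit and the calculation from log ratios alone were tested on simulated levels with independent RNAs. Background correction, normalization and the call above background were not tested in this way.

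Members, lists and tests were chosen with earlier results of these data known. Named miRNAs were the 3 members, the seed relative on the array, the 3 most like miR-34a and the 2 with the highest mean level in each other list, with further members where stated and only counts for the leukocyte, erythroid and nerve lists. Both legs come from the same animal, per the sample names: over the kept miRNAs, the departures of the 2 legs from their group means correlated by -0.418, 0.00519, -0.189, -0.0468 and 0.337 in animals 1 to 5. Sequences are from RefSeq (GRCr8).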

Additional observations from a re-analysis of the deposited data

Results flagged for a closer look

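In the shunt group, the miR-34b level of shunt 3, 5.79, stood apart from the other 4, which averaged 5.86 ± 0.0063 (SD). Its gap to the nearest was a share of 0.822 of the group's range, above the critical value of 0.71. It was 1 of 8 groups tested (the 3 members and miR-449 in shunt and in control RNA), and chance flags about 1 group in 20. No reading of miR-34b was above background, so the gap is among values near the floor.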

How the results depend on the processing

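The miR-34a difference of 0.0095 turned negative with no background correction (-0.010), an offset of 0 (-0.089), median centring within arrays (-0.028), quantile normalization between arrays (-0.013) and RNAs centred on the kept miRNAs (-0.12). Leaving out 1 RNA gave -0.023 (without control 4) to 0.063 (without control 3), and leaving out 1 array gave -0.027 (without array 4) to 0.11 (without array 2). It was 0.15 with no between-array normalization and 0.14 from log ratios alone. The median difference of the kept miRNAs, 0.12, was 0.28 with no between-array normalization and 0.24 with an offset of 0. Relative to it, miR-34a stood at -0.11 as reported, and at -0.13 and -0.33 under these settings. From log ratios alone it stood at 0.033, and on the 2 arrays with both groups at 0.025. Under no other setting was it above the median. Over all settings tested, 0 to 25 of the miRNAs fitted passed the threshold, against 1 as reported; 25 passed without control 4 and 8 in the separate-channel model. With animal as a replicate block it stayed 0.0095, with an adjusted p of 0.978 (fixed block) or 0.971 (random block), and the block changed no call of a member. At least 0.9 of all channels above background left 27 miRNAs without miR-34a, so this gave no value.

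The difference of measured levels, which is no fold, was 0.015 for miR-34b and 0.033 for miR-34c. For miR-34b it was 0.077 with an offset of 0, 0.063 with no between-array normalization, -0.11 with RNAs centred on the kept miRNAs and -0.023 in the deposited value table. For miR-34c it was 0.14 with an offset of 0, -0.092 with RNAs centred on the kept miRNAs and -0.10 from log ratios alone. Leaving out 1 RNA or array gave 0.0094 to 0.031 for miR-34b and -0.017 to 0.062 for miR-34c. Where all 3 spots had to exceed 2 SD, 0 readings of miR-34c and 11 of miR-34a were above background, and with a limit of 1 SD, 18 of miR-34a were. Kept without the filter, miR-34b had an adjusted p of 0.752 and miR-34c of 0.793 in limma. No member was called under any setting tested. Under the settings that only change the test, and in the separate-channel model, miR-34b and miR-34c have no value, since they were not kept. The cause of these shifts was not tested. The low signal over background limits what all 3 probes can show.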
